A study of Mus musculus with 4 samples.

Results

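The set held 33 genes that encode DNA damage sensors, checkpoint kinases and repair enzymes, taken by symbol from the 32285 genes counted in single-cell RNA libraries of mouse hindlimb muscle. The genes were listed by name, with earlier results of these data known. One hindlimb of male C57Bl/6J mice received 3 fractions of 8.2 Gy X-rays at 5 weeks of age, and the contralateral limb lay under lead. The 4 groups were IR 24-hours and CON 24-hours, taken 24 hours after the last fraction from irradiated and shielded limbs, and IR 56-days and CON 56-days, taken 56 days after irradiation. Every group was 1 library made from a pool of 3 limbs, so the shielded limbs came from animals that had also been irradiated, and no group had a replicate. Live nucleated cells were sorted after enzymatic dissociation, which leaves intact muscle fibres out. With 1 library per group no difference could be tested. Each interval in parentheses is a 95% interval for counting error only, and says nothing of the spread between animals.

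DNA breaks are sensed by the Mre11a-Rad50-Nbn complex and by the kinases Atm, Atr and DNA-PKcs, which mark the surrounding chromatin and pass the signal to checkpoint kinases and to p53. Double-strand breaks are then rejoined end to end or copied from a sister chromatid by homologous recombination, while damaged bases, bulky adducts and mismatches have excision pathways of their own. Translesion polymerases copy past lesions that stop replication. Many repair proteins are controlled by phosphorylation and ubiquitination rather than by transcription, but p53 is known to induce Ddb2, Xpc, Polk, Polh and Ercc5, some of them most clearly in human cells.

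A barcode was kept if it held 200 genes and 500 unique molecular identifiers (UMIs) or more, with no more than 20% of them mitochondrial. That left 2539 of 2763 in IR 24-hours, 1336 of 1471 in CON 24-hours, 969 of 1030 in IR 56-days and 1700 of 1822 in CON 56-days. The kept barcodes carried 9751722, 6026307, 4543545 and 8563823 UMIs, with medians between 3057 and 3627 per barcode, and any 2 libraries shared 1 to 3 barcode sequences. Levels are in CPM, the UMIs of a gene scaled to a total of 1000000 UMIs for the library or class. Cdkn1a, the p53 target that encodes p21, stood at 1832 CPM in IR 24-hours, 165.6 in CON 24-hours, 793 in IR 56-days and 106.5 in CON 56-days, so both irradiated libraries lay above the control of their time. All 33 members had UMIs in every library. They summed to 784 CPM in IR 24-hours, 552 in CON 24-hours, 618 in IR 56-days and 686 in CON 56-days.

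Classes were gated by counts of distinct marker genes. The largest was endothelial, with 1538 barcodes in IR 24-hours, 469 in CON 24-hours, 483 in IR 56-days and 783 in CON 56-days. It is described first because the mix of classes differed between the libraries. Haemoglobin-rich erythroid barcodes, for example, numbered 2 in IR 24-hours, 51 in CON 24-hours, 24 in IR 56-days and 87 in CON 56-days. All 9 endothelial markers were found in the endothelial gate of each library, at a summed level of 10897 CPM in IR 24-hours, 12409 in CON 24-hours, 10980 in IR 56-days and 11954 in CON 56-days. Markers of other classes also differed within the gate. The 8 fibro-adipogenic progenitor markers summed to 468.5 CPM in IR 24-hours and 13.8 in CON 24-hours, and to 119 CPM in IR 56-days and 12.9 in CON 56-days. The 7 neutrophil markers summed to 4627 CPM in IR 56-days and 4533 in CON 56-days, against at most 21.0 CPM in the libraries of 24 hours. A stricter gate that dropped every barcode with 2 or more markers of another class left 971, 330, 409 and 596 endothelial barcodes, with fibro-adipogenic markers at 9.26 to 15.4 CPM in all 4 libraries. Markers of some other classes still differed there. In the same order of libraries, pericyte or smooth muscle markers stood at 342, 399, 129 and 251 CPM. Myofibre markers stood at 222, 148, 89.5 and 131 CPM, and neutrophil markers at 2.83, 18.5, 21.1 and 92.3 CPM. The endothelial counts of members in IR over CON are given under the stricter gate as well. A member counted as measured in a comparison with at least 20 UMIs over its 2 libraries, and as past the threshold at a ratio of at least 1.5 or at most 0.667.

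In endothelial-gated barcodes at 24 hours, 11 of the 28 measured members were at least 1.5-fold higher in IR than in CON and 1 was at least 1.5-fold lower. Over all 11154 genes measured in the same barcodes, 17.2% were higher and 6.11% lower by the same rule, so the members' share of 39.3% was above that background. Their median log2 ratio was 0.32, beside 0.08 for all genes. The members higher in IR were Polk, Msh6, Rev3l, Brca2, Trp53bp1, Ercc5, Prkdc, Rnf168, Polh, Mre11a and Atm, and Xrcc1 was the one lower. Under the stricter gate the count was again 11 higher and 1 lower, of 27 measured, and 11 of 11 and 1 of 1 were the same genes. Set against CON 56-days in place of CON 24-hours, 5 members were higher, namely Polk, Lig4, Ercc5, Msh6 and Parp1, and 0 lower, with a median of 0.10, against 13.8% and 6.86% of all genes. Of the 11, 3 were thus past the threshold against either control, namely Polk, Ercc5 and Msh6, and the other 8 were not past it against CON 56-days. The share of all genes past it against both controls is not given here, so that count of 3 has no background beside it. That comparison was added after the data were seen, because CON 24-hours held the lowest endothelial level of the 4 libraries for 13 of the 28 members, against 28.4% of all genes. IR 24-hours held the highest level for 13 of the 28, again against 28.4% of all genes.

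At 56 days more endothelial members were lower in IR than higher. Of 28 measured members, 3 were at least 1.5-fold higher in IR than in CON, namely Lig4, Polk and Polh, and 7 were at least 1.5-fold lower, namely Prkdc, Nbn, Rev3l, Brca2, Atm, Atr and Xrcc6. Among all 10362 genes measured, 13% were higher and 13.3% lower, so the members' share of higher genes (10.7%) lay near the background and that of lower genes (25%) above it. The median log2 ratio of the members was -0.20, beside 0.02 for all genes. With the stricter gate 25 members were measured, of which 2 were higher, Polk and Ercc5, and 4 were lower, Prkdc, Nbn, Rev3l and Atr. Lig4 and Brca2 were not measured there.

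Among the translesion polymerases, which copy damaged templates, Polk had the largest IR-over-CON ratio of any measured member at 24 hours. Polk, the gene for DNA polymerase kappa, had 538, 38, 84 and 64 UMIs in the endothelial gates of IR 24-hours, CON 24-hours, IR 56-days and CON 56-days. That was 92.9 CPM in IR 24-hours, 20.98 in CON 24-hours, 40.98 in IR 56-days and 23.6 in CON 56-days. The irradiated library was the higher at both times and the shielded libraries lay close together. The ratio of IR to CON was 4.43 (3.18 to 6.33) at 24 hours and 1.74 (1.24 to 2.44) at 56 days, and the control libraries gave 1.12 (0.741 to 1.73) for CON 56-days over CON 24-hours. Against CON 56-days, Polk in IR 24-hours was still 3.94 (3.04 to 5.19) times as high, and under the stricter gate the 2 ratios of IR to CON were 4.73 (3.12 to 7.50) and 2.13 (1.42 to 3.23). No single barcode of the gate held more than 5 Polk UMIs, so the UMIs were spread over many barcodes.

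Polh, which encodes polymerase eta, the enzyme that copies past ultraviolet photoproducts, had 10.9 CPM in IR 24-hours, 5.52 in CON 24-hours, 13.7 in IR 56-days and 8.84 in CON 56-days. Both irradiated libraries exceeded the control of their time, at a ratio of 1.97 (1.00 to 4.31) at 24 hours and 1.54 (0.863 to 2.78) at 56 days, but each interval reached to 1 or nearly so at 63 UMIs or fewer per library, and under the stricter gate the 56-day ratio was 1.19 (0.605 to 2.32), within the threshold. Rev3l, the catalytic subunit of polymerase zeta, which extends from mismatched ends, had 54.6 CPM in IR 24-hours, 23.7 in CON 24-hours, 25.4 in IR 56-days and 44.2 in CON 56-days. It was 2.30 (1.67 to 3.24) times as high in IR as in CON at 24 hours and 0.574 (0.406 to 0.801) times at 56 days, so the direction differed between the times. The 2 controls also differed, since CON 56-days stood at 1.86 (1.31 to 2.70) times CON 24-hours, and IR 24-hours over CON 56-days was 1.23 (0.997 to 1.54).

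**Figure D1:**
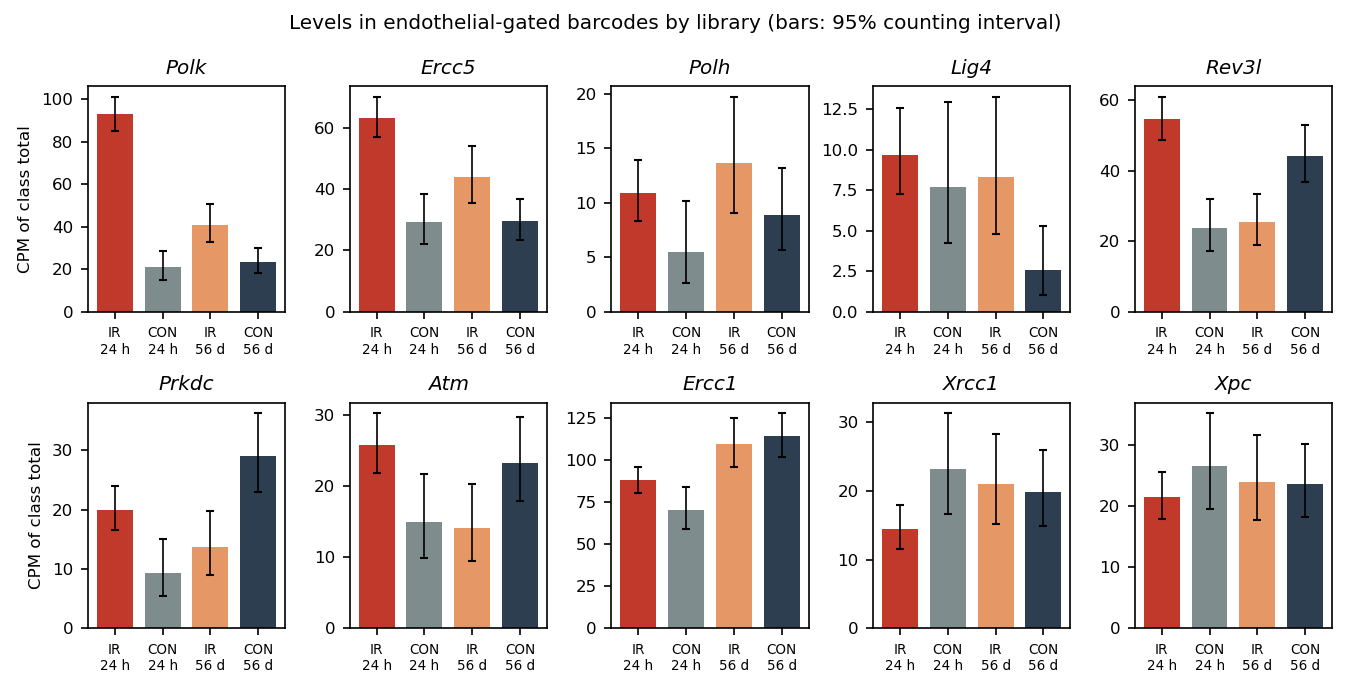
Bars give the level of 10 repair genes in CPM of the class total (vertical axes, from 0) in the endothelial gate of each library, with 95% counting intervals and irradiated libraries left of the control of their time. Polk stands at 92.9 CPM in IR 24-hours against 20.98 in CON 24-hours, while Prkdc is highest in CON 56-days at 29.1 CPM.

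The promoter windows of Polk are shown because it had the largest ratio at 24 hours, and that of Ercc5 because it is another p53-listed member higher in IR at that time. RefSeq windows on GRCm38.p6 (250 bases before to 50 after a start) were found for 26 of the 33 members. They were searched on both strands for the p53 half-site consensus and for the E2F consensus TTTGGCGC, TTTCCCGC, TTTGCCGC or TTTCGCGC. No member's window held both motifs. The half-site was in 2 of the 26 members, Polk and Fanca, and in 8.36% of all 32851 windows. In Polk it began 231 bases before the start of an internal RefSeq window (chr13:96519138-96519437, minus strand) and was not found in the window at the start of the annotated gene (chr13:96542530-96542829, minus strand) or in that of Ercc5 (chr1:44147494-44147793, plus strand). A match is a description of letters and not evidence of binding. In the first line below the capitals mark the half-site.
Polk internal window: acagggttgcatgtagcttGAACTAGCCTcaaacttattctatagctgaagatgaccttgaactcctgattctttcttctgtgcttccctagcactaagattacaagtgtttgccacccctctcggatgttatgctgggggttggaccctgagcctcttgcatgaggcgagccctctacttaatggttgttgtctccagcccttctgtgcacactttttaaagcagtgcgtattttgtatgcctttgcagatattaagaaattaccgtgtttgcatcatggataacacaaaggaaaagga
Polk outer window: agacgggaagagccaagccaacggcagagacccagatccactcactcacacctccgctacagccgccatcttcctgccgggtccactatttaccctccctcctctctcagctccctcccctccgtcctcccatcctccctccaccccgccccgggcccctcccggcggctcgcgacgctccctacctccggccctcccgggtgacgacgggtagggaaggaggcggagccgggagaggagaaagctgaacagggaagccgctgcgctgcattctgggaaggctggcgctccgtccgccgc
Ercc5 window: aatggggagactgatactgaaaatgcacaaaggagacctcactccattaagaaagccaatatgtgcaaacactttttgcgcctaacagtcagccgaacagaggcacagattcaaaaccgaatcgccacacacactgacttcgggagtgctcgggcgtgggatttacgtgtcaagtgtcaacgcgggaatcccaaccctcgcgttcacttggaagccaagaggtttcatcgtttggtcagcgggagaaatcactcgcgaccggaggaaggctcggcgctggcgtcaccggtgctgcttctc

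Of the 4 members in nucleotide excision, which cuts bulky adducts out of DNA, only Ercc5 was past the threshold at 24 hours in the endothelial gate. Ercc5 encodes the XPG endonuclease, which cuts on one side of the lesion, and had 63.2 CPM in IR 24-hours, 29.3 in CON 24-hours, 43.9 in IR 56-days and 29.5 in CON 56-days. The 2 controls were nearly equal, at a ratio of 1.01 (0.703 to 1.45), and both irradiated libraries lay above them. IR over CON was 2.16 (1.62 to 2.94) at 24 hours and 1.49 (1.09 to 2.04) at 56 days, or 1.70 (1.18 to 2.46) under the stricter gate. Ercc1, whose product cuts on the other side of the lesion with Ercc4, had 88.2 CPM in IR 24-hours, 70.7 in CON 24-hours, 109.8 in IR 56-days and 115 in CON 56-days. Its IR-over-CON ratio was 1.25 (1.03 to 1.53) at 24 hours and 0.958 (0.803 to 1.14) at 56 days, while CON 56-days exceeded CON 24-hours at a ratio of 1.62 (1.32 to 2.01). The damage recognition genes Xpc and Ddb2 were within the threshold at both times. Xpc had 21.4 CPM in IR 24-hours, 26.5 in CON 24-hours, 23.9 in IR 56-days and 23.6 in CON 56-days, and its ratios were 0.808 (0.575 to 1.15) and 1.01 (0.684 to 1.49). Ddb2, the ultraviolet damage sensor, had only 27, 8, 8 and 14 UMIs and ratios of 1.06 (0.467 to 2.69) and 0.756 (0.275 to 1.93). These wide intervals held the Ercc5 ratio of the same time. Of the 5 members known as p53 targets, 3 were thus higher in IR at 24 hours (Polk, Ercc5 and Polh), against 17.2% of all genes, and 2 at 56 days (Polk and Polh), against 13%, and 0 were lower at either time.

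Atm and Prkdc lay on opposite sides of 1 at the 2 times. Atm, the kinase that answers double-strand breaks, had 25.7 CPM in IR 24-hours, 14.9 in CON 24-hours, 14.2 in IR 56-days and 23.2 in CON 56-days in the endothelial gate. Prkdc, the gene for the catalytic subunit of DNA-PK, had 20.03 CPM in IR 24-hours, 9.39 in CON 24-hours, 13.7 in IR 56-days and 29.1 in CON 56-days. For both genes IR 24-hours lay above CON 24-hours and IR 56-days below CON 56-days. At 24 hours IR over CON was 1.73 (1.14 to 2.71) for Atm and 2.13 (1.28 to 3.79) for Prkdc. At 56 days it was 0.609 (0.378 to 0.960) for Atm and 0.469 (0.293 to 0.730) for Prkdc. Under the stricter gate Atm at 56 days was 0.694 (0.401 to 1.18), within the threshold and with an interval that held 1, and Prkdc 0.517 (0.306 to 0.849). The shielded libraries differed too, with Prkdc at 3.10 (1.82 to 5.59) times and Atm at 1.56 (0.978 to 2.54) times as high in CON 56-days as in CON 24-hours. Against CON 56-days the IR 24-hours level of Prkdc was lower, at a ratio of 0.688 (0.513 to 0.928), and that of Atm was within the threshold at 1.11 (0.820 to 1.51). Atr, the kinase of stalled forks, had 24 CPM in IR 24-hours, 19.9 in CON 24-hours, 17.6 in IR 56-days and 28.4 in CON 56-days, and was within the threshold at 24 hours (1.21, 0.832 to 1.79) and lower in IR at 56 days (0.619, 0.405 to 0.931).

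In the break-binding complex, Mre11a, the nuclease, had 14.5 CPM in IR 24-hours, 8.28 in CON 24-hours, 13.2 in IR 56-days and 16.2 in CON 56-days. It was 1.75 (1.00 to 3.27) times as high in IR as in CON at 24 hours and 0.812 (0.484 to 1.34) times at 56 days, and CON 56-days was 1.96 (1.07 to 3.79) times CON 24-hours. Rad50, the structural subunit, had 50.6 CPM in IR 24-hours, 43.1 in CON 24-hours, 37.1 in IR 56-days and 38.3 in CON 56-days, and its ratios of 1.18 (0.912 to 1.53) and 0.967 (0.710 to 1.31) both lay within the threshold. Nbn, which recruits Atm to the complex, had 24.9 CPM in IR 24-hours, 25.4 in CON 24-hours, 18.1 in IR 56-days and 33.2 in CON 56-days. It did not differ past the threshold at 24 hours (0.979, 0.698 to 1.40) and was lower in IR at 56 days (0.544, 0.361 to 0.806). At 24 hours 1 of the 3 subunits was thus higher past the threshold, against 17.2% of all genes. At 56 days another was lower past it, against 13.3%. Chek2, the kinase downstream of Atm, had 89.6 CPM in IR 24-hours, 104 in CON 24-hours, 80 in IR 56-days and 92.5 in CON 56-days, with ratios of 0.859 (0.726 to 1.02) and 0.865 (0.706 to 1.06), both within the threshold. Chek1, the kinase downstream of Atr, had 1, 1, 4 and 1 UMIs and was not measured in this gate.

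The chromatin mediators carry the break signal along the chromosome, and 2 of the 4 were higher in IR at 24 hours, against 17.2% of all genes. Trp53bp1, whose product 53BP1 holds ends for joining, had 29.2 CPM in IR 24-hours, 13.3 in CON 24-hours, 16.6 in IR 56-days and 22.9 in CON 56-days. Rnf168, a ubiquitin ligase that marks histone H2A, had 43 CPM in IR 24-hours, 20.98 in CON 24-hours, 31.2 in IR 56-days and 41.3 in CON 56-days. In both, CON 24-hours was the lowest of the 4 libraries. IR over CON at 24 hours was 2.20 (1.43 to 3.53) for Trp53bp1 and 2.05 (1.45 to 2.97) for Rnf168, but against CON 56-days the ratios were 1.28 (0.949 to 1.74) and 1.04 (0.830 to 1.31). Mdc1, the scaffold that reads phosphorylated H2A.X, had 20.9 CPM in IR 24-hours, 14.9 in CON 24-hours, 18.5 in IR 56-days and 21.4 in CON 56-days, and Rnf8, the ligase upstream of Rnf168, had 34.5 CPM in IR 24-hours, 36.4 in CON 24-hours, 28.8 in IR 56-days and 36.9 in CON 56-days. Neither was past the threshold at 24 hours, at 1.40 (0.918 to 2.21) and 0.948 (0.714 to 1.27). At 56 days 0 of the 4 were past it, with ratios between 0.726 and 0.867, against 13% of all genes higher and 13.3% lower.

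Of the end joining and recombination members, 1 was past the threshold at 24 hours and 3 at 56 days beside Prkdc. Of all genes, 17.2% were higher and 6.11% lower at 24 hours, and 13% and 13.3% at 56 days. Xrcc4, the scaffold of DNA ligase IV, had 36.1 CPM in IR 24-hours, 28.7 in CON 24-hours, 19.5 in IR 56-days and 27.6 in CON 56-days, and stayed within the threshold at 1.26 (0.924 to 1.74) and 0.706 (0.469 to 1.05). Lig4, the ligase itself, had 9.67 CPM in IR 24-hours, 7.73 in CON 24-hours, 8.29 in IR 56-days and 2.58 in CON 56-days, from 56, 14, 17 and 7 UMIs. CON 56-days was the lowest of the 4 libraries for Lig4. IR over CON was 3.22 (1.27 to 9.17) at 56 days and 1.25 (0.687 to 2.43) at 24 hours, and the ratio of CON 56-days to CON 24-hours was 0.334 (0.114 to 0.884). IR 24-hours over CON 56-days was 3.75 (1.70 to 9.75). Xrcc6, which encodes Ku70, had 11.7 CPM in IR 24-hours, 11.6 in CON 24-hours, 8.29 in IR 56-days and 12.9 in CON 56-days, with ratios of 1.01 (0.613 to 1.74) and 0.643 (0.338 to 1.18), and 0.758 (0.378 to 1.48) at 56 days under the stricter gate, within the threshold. Xrcc5, its partner Ku80, had 7, 1, 1 and 1 UMIs and was not measured. Brca2, a homologous recombination gene, had 8.81 CPM in IR 24-hours, 3.87 in CON 24-hours, 4.39 in IR 56-days and 7.37 in CON 56-days, and 2.28 (1.03 to 5.95) and 0.596 (0.239 to 1.37) as its IR-over-CON ratios, each from 51 UMIs or fewer per library. Under the stricter gate neither Lig4 nor Brca2 was measured at 56 days. Rad52, an annealing factor, had 10.7 CPM in IR 24-hours, 12.2 in CON 24-hours, 10.2 in IR 56-days and 7.74 in CON 56-days, within the threshold at 0.881 (0.534 to 1.51) and 1.32 (0.688 to 2.55). Brca1 had 6, 0, 6 and 2 UMIs.

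Base excision and single-strand break repair gave the one member lower in IR at 24 hours, 1 of its 4, against 6.11% of all genes. Xrcc1, the scaffold of that pathway, had 14.5 CPM in IR 24-hours, 23.2 in CON 24-hours, 20.98 in IR 56-days and 19.9 in CON 56-days. IR 24-hours was the lowest of the 4 libraries, at a ratio of 0.626 (0.427 to 0.929) to CON 24-hours, and at 56 days the libraries were nearly level (1.05, 0.689 to 1.60). Under the stricter gate the ratio at 24 hours was 0.394 (0.243 to 0.640). Against CON 56-days it was 0.729 (0.512 to 1.05). Parp1, which signals nicks by poly-ADP-ribosylation, had 20.7 CPM in IR 24-hours, 17.7 in CON 24-hours, 19.02 in IR 56-days and 13.6 in CON 56-days, and Lig3, the ligase that works with Xrcc1, had 21.1 CPM in IR 24-hours, 18.8 in CON 24-hours, 17.1 in IR 56-days and 16.2 in CON 56-days. Lig1, the replicative ligase, had 11.1 CPM in IR 24-hours, 8.28 in CON 24-hours, 11.7 in IR 56-days and 11.8 in CON 56-days. None of these 3 was past the threshold at either time, with ratios between 1.12 and 1.33 at 24 hours and between 0.993 and 1.40 at 56 days. Against CON 56-days, Parp1 in IR 24-hours was at 1.52 (1.04 to 2.26). Msh6, a mismatch repair gene, had 18.5 CPM in IR 24-hours, 5.52 in CON 24-hours, 13.2 in IR 56-days and 9.95 in CON 56-days. It was 3.35 (1.75 to 7.18) times as high in IR at 24 hours, 1.86 (1.21 to 2.95) times against CON 56-days, and 1.32 (0.747 to 2.35) times at 56 days. The Fanconi anaemia genes Fanca and Fancd2 had 0, 0, 0 and 4 UMIs and 3, 0, 4 and 0 UMIs and could not be compared.

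**Figure D2:**
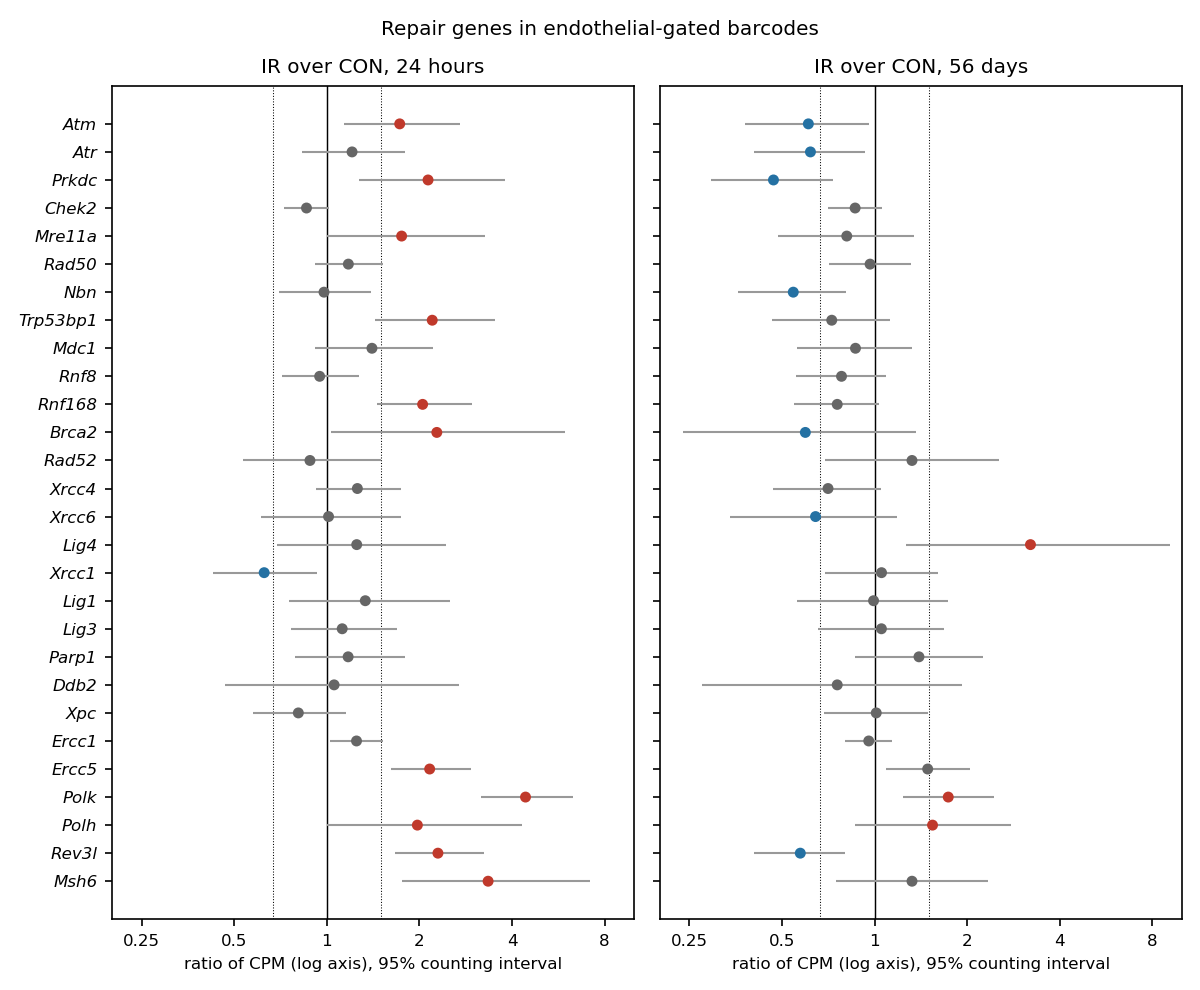
Points give the IR-over-CON ratio of CPM (horizontal log axis) for the 28 measured repair genes in the endothelial gate at 24 hours (left) and 56 days (right), with 95% counting intervals, red for at least 1.5-fold higher, blue for at least 1.5-fold lower and dotted lines at the threshold. Polk stands to the right at both times, at 4.43 and 1.74, while Prkdc, Rev3l and Atm stand on opposite sides of 1.

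The shielded libraries were also compared with each other. They differ in age, in time since the animals were irradiated, and in library, which cannot be told apart. In the endothelial gate, 10 of 28 measured members were at least 1.5-fold higher in CON 56-days than in CON 24-hours and 2 were lower, against 13.5% and 9.32% of all genes. The 10 were Prkdc, Rnf168, Mre11a, Brca2, Rev3l, Msh6, Trp53bp1, Ercc1, Polh and Atm, and the 2 were Lig4 and Rad52. Because the 24-hour and control-to-control comparisons share CON 24-hours, and the 56-day one shares CON 56-days, low or high values of a control enter more than one ratio. The span of the gene in the genome moved with these ratios. Endothelial genes spanning at least 50 kb had an all-gene median log2 ratio of 0.23 in IR over CON at 24 hours, -0.24 at 56 days and 0.23 in CON 56-days over CON 24-hours, while shorter genes had 0.017, 0.11 and -0.07. The 10 measured members of at least 50 kb had medians of 0.77, -0.56 and 0.56 in the 3 comparisons, and the 18 shorter ones 0.25, 0.01 and 0.10. Malat1, a nuclear RNA, stood at 19801 CPM in IR 24-hours, 11401 in CON 24-hours, 12514 in IR 56-days and 13615 in CON 56-days in the same barcodes. The part of gene length or nuclear RNA in the members' differences was not tested. Polk spans 61.9 kb, Rev3l 143 kb, Prkdc 204 kb and Atm 97.6 kb, whereas Ercc5 spans 33.5 kb and Msh6 15.8 kb.

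A further 103 genes of the same pathways, none of them members, gave the surroundings. At 24 hours in the endothelial gate 86 were measured, of which 18 (20.9%) were at least 1.5-fold higher in IR and 4 (4.65%) lower, near the 17.2% and 6.11% of all genes, with a median log2 ratio of 0.10. Rev1, the scaffold of translesion synthesis, had a ratio of 2.57 (1.87 to 3.61), and Ercc6, the sensor of stalled transcription, 3.41 (1.72 to 7.67). Polm, an end joining polymerase, had 4.54 (1.15 to 39.2) from 29 UMIs in IR and 2 in CON. In signalling, Atrip, the partner of Atr, had 1.75 (1.08 to 2.98), Rif1, an effector of 53BP1, 1.71 (1.36 to 2.17), and Ppm1d, a p53-induced phosphatase, 1.71 (1.29 to 2.28), while Rad9a, a checkpoint clamp subunit, was lower at 0.513 (0.305 to 0.880). Mgmt, which removes alkyl groups from guanine directly, had 2.32 (1.75 to 3.15). In the list of nucleotide supply and p53-linked genes, 1 of 4 was higher and 1 lower. These were the exonuclease gene Aen at 3.59 (2.76 to 4.73) and Gadd45a at 0.591 (0.432 to 0.815).

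At 56 days 78 of the 103 were measured, 13 of them (16.7%) higher in IR and 10 (12.8%) lower, near the 13% and 13.3% of all genes, with a median of -0.02. Aen was 4.48 (3.24 to 6.30) and Mgmt 2.65 (1.85 to 3.83), so both were higher in IR at both times, as Polk was. Base excision genes gave 6 of the 13, and of these the abasic site nuclease Apex1 (2.32, 1.30 to 4.24) and the end processing gene Aptx (2.65, 1.13 to 6.69) had intervals clear of 1. So did Mad2l2, which joins Rev3l in polymerase zeta (1.72, 1.19 to 2.49), Babam1, a subunit of a Brca1 complex (1.53, 1.20 to 1.95), and Alkbh2, a DNA demethylase (2.12, 1.07 to 4.34). The controls differed too. In CON 56-days over CON 24-hours, 1 of 10 measured base excision genes was higher and 3 lower. Of the 3 direct reversal genes, Mgmt and Alkbh2 among them, 0 were higher and 2 lower. All genes gave 13.5% higher and 9.32% lower. The part of the controls in these ratios was not tested. Lower in IR, with intervals clear of 1, were the fork ubiquitin ligase Rad18 (0.353, 0.140 to 0.788), the end resection factor Rbbp8 (0.490, 0.332 to 0.711) and the mismatch gene Msh3 (0.571, 0.330 to 0.959). So were the ribonucleotide reductase subunit Rrm2b (0.637, 0.478 to 0.842) and the TFIIH subunit Gtf2h1 (0.662, 0.476 to 0.912). Rrm2b and Aen are both among the nucleotide supply and p53-linked genes, of which 1 of 4 was higher and 1 lower. Over all kept barcodes, 21 of 98 measured genes of the list of 103 (21.4%) were higher in IR and 16 (16.3%) lower at 24 hours, against 34.6% and 10.8% of all genes. At 56 days 8 of 101 (7.92%) were higher and 18 (17.8%) lower, against 17.2% and 12.9%, so at both times the list's share of higher genes lay below the background and that of lower genes above it.

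In the other classes fewer members could be measured. Cdkn1a was higher in IR at 24 hours in pericyte or smooth muscle, fibro-adipogenic progenitor, satellite and Schwann gates, at ratios of 19.5 (7.53 to 72.1), 10.6 (7.66 to 15.0), 18.8 (12.9 to 28.5) and 2.01 (1.73 to 2.34). Its interval held 1 in B barcodes, at 2.20 (0.611 to 7.65) from 6 UMIs in IR and 7 in CON, and in T or NK barcodes, at 3.30 (0.484 to 19.5) from 3 and 4 UMIs, and in Schwann barcodes at 56 days the ratio was 1.02 (0.841 to 1.23). Endothelial markers summed to no more than 656 CPM in any of the other named gates with 25 or more barcodes. Rev3l was measured in each of the 7 named classes described at 24 hours. In satellite-gated barcodes, the muscle stem cells, it had 66 UMIs in IR 24-hours and 14 in CON 24-hours, 207 CPM in IR against 55.1 CPM in CON, a ratio of 3.75 (2.09 to 7.23), a log2 ratio that was 0.92 under the stricter gate against 1.87 in the gate as described. In Schwann-gated barcodes, the glia of nerve, it had 73 and 5 UMIs, 126 CPM in IR against 25.8 CPM in CON, a ratio of 4.89 (2.00 to 15.5). In B-gated barcodes it was 69.8 CPM in IR against 34.8 CPM in CON, a ratio of 2.01 (1.14 to 3.49), and in T or NK barcodes 104 CPM in IR against 36.1 CPM in CON, a ratio of 2.89 (1.53 to 5.32). The ratios in fibro-adipogenic progenitors and in pericytes or smooth muscle, 1.61 (0.897 to 3.04) and 0.953 (0.441 to 2.28), had intervals that held 1. At 56 days Rev3l was below 1 in each of the 7 named classes where it was measured, with the interval clear of 1 in the endothelial gate and in fibro-adipogenic progenitors (22.4 CPM in IR against 66.8 CPM in CON, a ratio of 0.335, 0.117 to 0.787). The others were 0.447 (0.181 to 1.05) in pericytes or smooth muscle, 0.508 (0.194 to 1.13) in satellite, 0.577 (0.216 to 1.41) in Schwann, 0.522 (0.182 to 1.34) in macrophage or monocyte and 0.703 (0.302 to 1.55) in B barcodes. The shielded libraries differed too, with CON 56-days over CON 24-hours at 2.38 (1.29 to 4.68) in satellite and 2.79 (0.988 to 9.67) in Schwann barcodes.

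In Schwann barcodes at 24 hours, 6 of 11 measured members were at least 1.5-fold higher in IR and 1 lower, against 26% and 11.6% of all genes there. Besides Rev3l, Nbn had an interval clear of 1, with 20 UMIs in IR and 1 in CON and a ratio of 6.69 (1.07 to 277). Nbn met the minimum of 20 summed UMIs through IR, where the gate held 579600 UMIs against 193912 in CON. Its ratio is therefore a description of counts only. In pericytes or smooth muscle the counts were 4 higher and 2 lower of 10, against 20.5% and 14.3% of all genes. Each interval there held 1, Polk included (46.4 CPM in IR against 21.6 CPM in CON, a ratio of 2.14, 0.755 to 8.38). In fibro-adipogenic progenitors, stromal cells of muscle, 3 of 7 were higher and 0 lower, against 21.5% and 10.7%, and Rnf168 was the one with an interval clear of 1 (43.3 CPM in IR against 10.8 CPM in CON, a ratio of 4.02, 1.21 to 20.98). With 22 UMIs in IR, Rnf168 also met the minimum of 20 summed UMIs through IR, so its ratio is a description of counts only. Polk was at 1.57 (0.636 to 4.38) in fibro-adipogenic progenitors. In satellite barcodes 3 of 4 were higher and 0 lower, against 25% and 11.9%.

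In B-gated barcodes at 24 hours 4 of 16 measured members were higher in IR and 5 lower, against 20.3% and 15.9% of all genes, so the members' share lower (31.2%) exceeded the background and the share higher (25%) was near it. Xrcc6 had 7 UMIs in IR and 91 in CON, 19.6 CPM in IR against 99.03 CPM in CON, a ratio of 0.198 (0.0772 to 0.424), and Lig4 had 2 and 25 UMIs, 5.59 CPM in IR against 27.2 CPM in CON, a ratio of 0.205 (0.0236 to 0.824). Both belong to end joining, the pathway that V(D)J recombination uses in developing B cells. Cycling markers also differed in these barcodes, at 27.9 CPM in IR and 375 in CON, and their part in the ratios was not tested. Atm was higher in IR, at 50.3 CPM in IR against 18.5 CPM in CON, a ratio of 2.72 (1.32 to 5.61), as was Msh6, at 33.5 CPM in IR against 13.1 CPM in CON, a ratio of 2.57 (1.06 to 6.25) from 12 UMIs in each library. In T or NK barcodes 3 of 6 were higher and 0 lower, against 25.8% and 13.5%. Parp1 was 82.2 CPM in IR against 36.1 CPM in CON, a ratio of 2.28 (1.14 to 4.39), with 7 of its 15 IR UMIs in 1 barcode, and without cycling barcodes its log2 ratio was 0.06.

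At 56 days few members could be measured in the smaller classes. In pericytes or smooth muscle 0 of 5 members were higher and 2 lower (18.7% and 13.9% of all genes), and in Schwann barcodes 0 of 4 higher and 1 lower (15.3% and 17.4%). In fibro-adipogenic progenitors 1 of 10 was higher and 3 lower, against 16.2% and 22.9%. In B barcodes 0 of 8 were higher and 2 lower, against 12.6% and 23%, and Rad50 had the interval clear of 1 (24.4 CPM in IR against 73.8 CPM in CON, a ratio of 0.331, 0.110 to 0.842). The plot by class shows Rev3l as a row with a value in every class at both times.

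**Figure D3:**
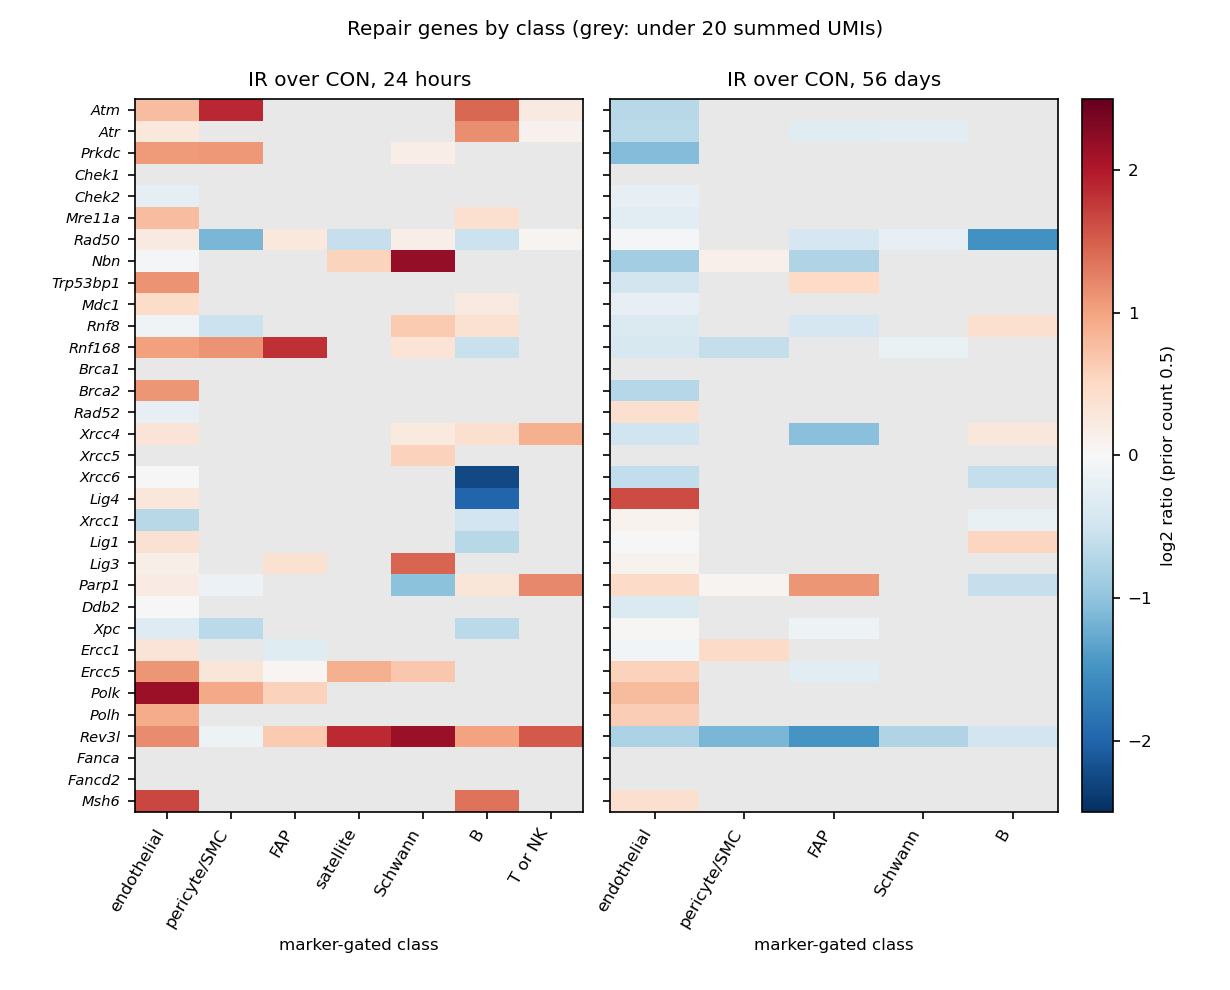
Colours give the log2 ratio of IR over CON (prior count of 0.5) for the 33 repair genes in rows and marker-gated classes in columns, at 24 hours (left) and 56 days (right), grey where a gene had under 20 summed UMIs (FAP stands for fibro-adipogenic progenitor and SMC for smooth muscle). Rev3l is red in 6 of the 7 classes at 24 hours and blue in 5 of 5 at 56 days, and Xrcc6 and Lig4 are the darkest blue cells in B barcodes at 24 hours.

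Within a library, several members were concentrated in one class, and these levels compare classes and not genes. Chek2 was led by the endothelial gate in all 4 libraries, at 89.6 CPM in IR 24-hours, 104.3 in CON 24-hours, 80.0 in IR 56-days and 92.5 in CON 56-days. The next class stood at 10.96 CPM (T or NK), 11.8 (satellite), 12.2 (B) and 47.0 (erythroid), in each case with an interval that did not overlap. Ercc1 was also highest in the endothelial gate of every library, though in CON 24-hours its interval overlapped that of fibro-adipogenic progenitors (70.7 against 35.9 CPM). Parp1 was led by B barcodes in all 4 libraries, at 193, 158, 155 and 232 CPM, against 82.2, 51.6, 50.8 and 52.0 CPM in the next class. Xrcc6 likewise stood at 99.0 CPM in B barcodes of CON 24-hours, 101.8 of IR 56-days and 154 of CON 56-days, with every other class at 30.9 CPM or less. Rev3l led in satellite barcodes in 3 libraries, at 207 CPM in IR 24-hours, 66.6 in IR 56-days and 131 in CON 56-days, but its interval was clear of the next class in IR 24-hours alone. Xpc was highest in neutrophil barcodes of both control libraries, at 83.1 CPM in CON 24-hours and 56.9 in CON 56-days, with intervals that overlapped the next class. In CON 56-days, erythroid barcodes led for Brca1 (79.9 CPM), Brca2 (122 CPM) and Lig1 (170 CPM), each clear of the next class at 16.8, 21.2 and 33.5 CPM.

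Replication-linked members followed the cycling barcodes, defined by at least 1 UMI of Mki67 or Top2a. These numbered 18 in IR 24-hours, 79 in CON 24-hours, 42 in IR 56-days and 129 in CON 56-days, and held 1.29%, 14.5%, 13.3% and 22.3% of library UMIs. Lig1, which seals Okazaki fragments, stood at 103 against 9.77 CPM in cycling against other barcodes of IR 24-hours, 110.0 against 6.40 CPM in CON 24-hours, 154 against 10.7 CPM in IR 56-days and 142 against 6.76 CPM in CON 56-days. Brca2 was likewise higher in cycling barcodes of every library, at 55.6 against 9.45 CPM, 36.7 against 4.27 CPM, 61.1 against 3.30 CPM and 94.8 against 6.91 CPM. Brca1, the recombination ubiquitin ligase, had 0 of its 9 UMIs in cycling barcodes of IR 24-hours, but 41 of 43 in CON 24-hours, 30 of 39 in IR 56-days and 131 of 136 in CON 56-days. For Chek1 the cycling barcodes held 1 of 4, 11 of 14, 16 of 21 and 47 of 51 UMIs, and for Fancd2 0 of 5, 6 of 9, 8 of 12 and 44 of 54. Ercc1 and Polk went the other way, with 6.28 against 55.9 CPM and 8.38 against 16.2 CPM in cycling against other barcodes of CON 56-days. Cycling barcodes were also deeper, at medians of 5070 to 12429.5 UMIs, and many were erythroid, 26 of 79 in CON 24-hours, 21 of 42 in IR 56-days and 69 of 129 in CON 56-days.

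**Figure D4:**
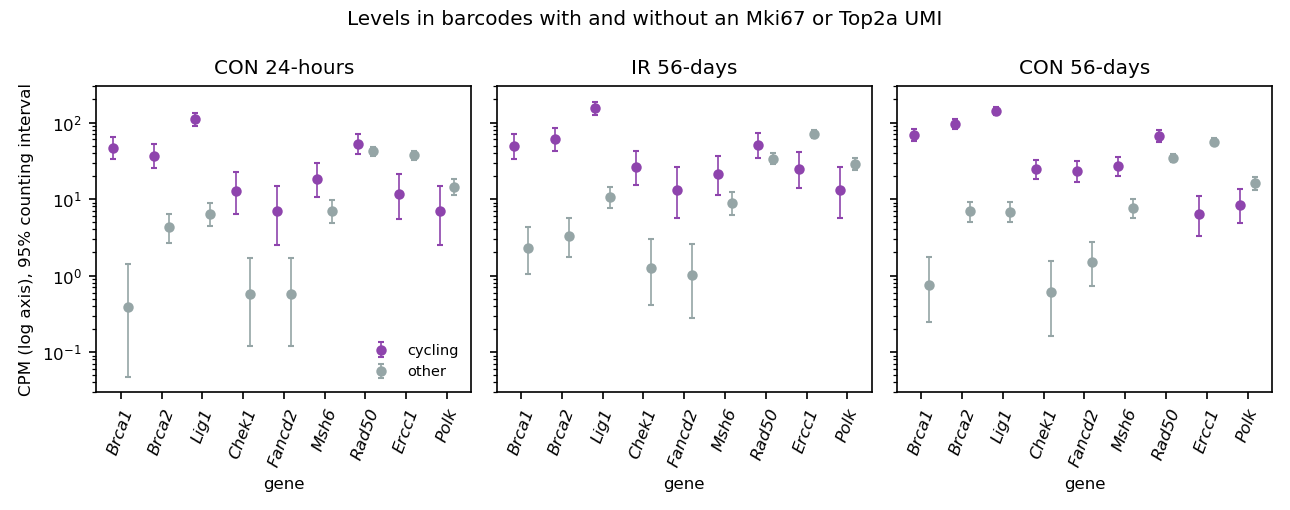
Points give levels in CPM (vertical log axis, 95% counting intervals) of 9 repair genes in barcodes with (purple) and without (grey) an Mki67 or Top2a UMI, in the 3 libraries with 42 or more such barcodes. Lig1 stands at 142 against 6.76 CPM in cycling against other barcodes of CON 56-days, while Ercc1 stands lower in cycling barcodes.

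The E2F consensus, which is tied to genes transcribed in S phase, was found in the windows of 6 of the 26 members (Brca2, Chek2, Lig1, Mdc1, Msh6 and Xrcc6), or 6 of their 30 windows, against 2.26% of all windows. The windows of Brca2 (chr5:150522371-150522670, plus strand), with the match beginning 168 bases before the start, and of Lig1 (chr7:13278576-13278875, plus strand, one of 3 windows of that gene), with the match 26 bases after it, are printed because these were the 2 members with the most UMIs in cycling barcodes of CON 56-days, with the match in capitals, in both cases read from the opposite strand. No match was found for Chek1 or Brca1 in their windows, and that says nothing of other positions.
Brca2 window: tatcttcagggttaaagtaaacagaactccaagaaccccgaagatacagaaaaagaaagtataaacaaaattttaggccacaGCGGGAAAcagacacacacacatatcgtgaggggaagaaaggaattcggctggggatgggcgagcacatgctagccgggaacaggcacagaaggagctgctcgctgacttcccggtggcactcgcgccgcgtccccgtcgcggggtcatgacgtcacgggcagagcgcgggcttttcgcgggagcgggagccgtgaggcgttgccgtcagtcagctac
Lig1 second window: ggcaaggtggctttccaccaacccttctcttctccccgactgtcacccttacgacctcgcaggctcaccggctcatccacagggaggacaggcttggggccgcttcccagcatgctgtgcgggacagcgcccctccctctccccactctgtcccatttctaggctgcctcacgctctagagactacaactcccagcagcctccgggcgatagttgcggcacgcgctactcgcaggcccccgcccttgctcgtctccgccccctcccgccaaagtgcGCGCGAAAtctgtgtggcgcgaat

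Over all kept barcodes the differences mixed levels with the class composition. At 24 hours 14 of 30 measured members were at least 1.5-fold higher in IR and 4 lower, against 34.6% and 10.8% of all 13951 genes, so the members' share of 46.7% was only modestly above the background, and their median log2 ratio of 0.44 was near the 0.35 of all genes. Scaled by the median of gene ratios in place of the total, which removes that shift, the counts were 6 higher and 7 lower. At 56 days 3 of 33 were higher and 6 lower, against 17.2% and 12.9%, with a median of -0.31 beside 0.11.

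Brca1 and Lig1, both higher in cycling than in other barcodes of the controls, were at least 1.5-fold lower in IR at 24 hours. Brca1 had 0.923 CPM in IR 24-hours, 7.14 in CON 24-hours, 8.58 in IR 56-days and 15.9 in CON 56-days, an IR-over-CON ratio of 0.129 (0.0554 to 0.269) at 24 hours and 0.541 (0.369 to 0.777) at 56 days. Lig1 had 10.97 CPM in IR 24-hours, 21.4 in CON 24-hours, 29.7 in IR 56-days and 37.02 in CON 56-days, at 0.513 (0.393 to 0.668) and 0.803 (0.651 to 0.985). Without cycling barcodes, the 24-hour ratio of Lig1 changed direction, to 0.59 on the log2 scale from 94 UMIs in IR and 33 in CON, while Brca1 kept 9 and 2 UMIs, too few to compare. Brca2 had 10.1 CPM in IR 24-hours, 8.96 in CON 24-hours, 11 in IR 56-days and 26.5 in CON 56-days, at 1.12 (0.797 to 1.59) and 0.415 (0.299 to 0.566). Chek1 had 0.410 CPM in IR 24-hours, 2.32 in CON 24-hours, 4.62 in IR 56-days and 5.96 in CON 56-days, Fanca 0.718 CPM in IR 24-hours, 0.996 in CON 24-hours, 2.42 in IR 56-days and 3.74 in CON 56-days, and Fancd2 0.513 CPM in IR 24-hours, 1.49 in CON 24-hours, 2.64 in IR 56-days and 6.31 in CON 56-days, each with fewer than 20 UMIs at 24 hours. At 56 days their ratios were 0.776 (0.443 to 1.31) for Chek1, 0.648 (0.295 to 1.32) for Fanca and 0.419 (0.204 to 0.793) for Fancd2. CON 56-days thus held the highest level of each of these 6 genes. It held the highest level of 12 of the 33 members, against 17.3% of all genes.

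Xrcc6 and Parp1, both led by B barcodes in most libraries, were also at least 1.5-fold lower in IR at 24 hours. Xrcc6 had 13.1 CPM in IR 24-hours, 27.9 in CON 24-hours, 13.9 in IR 56-days and 19.4 in CON 56-days, at 0.471 (0.371 to 0.596), and Parp1 had 29.5 CPM in IR 24-hours, 46.3 in CON 24-hours, 33.5 in IR 56-days and 28.96 in CON 56-days, at 0.638 (0.539 to 0.755). Parp1 changed direction, to 0.10 on the log2 scale, when the class mix of the 2 libraries was made equal. Its partners in base excision, Xrcc1 and Lig3, had 13.6 CPM in IR 24-hours, 20.2 in CON 24-hours, 20.3 in IR 56-days and 15.3 in CON 56-days, and 21.8 CPM in IR 24-hours, 13.6 in CON 24-hours, 16.95 in IR 56-days and 17.5 in CON 56-days, at 0.674 (0.523 to 0.869) and 1.61 (1.24 to 2.10). Xrcc5 had 6.46 CPM in IR 24-hours, 9.29 in CON 24-hours, 4.84 in IR 56-days and 4.79 in CON 56-days, at 0.695 (0.477 to 1.02), Lig4 8.92 CPM in IR 24-hours, 8.13 in CON 24-hours, 6.82 in IR 56-days and 4.32 in CON 56-days, at 1.10 (0.765 to 1.59), and Xrcc4 31.7 CPM in IR 24-hours, 18.4 in CON 24-hours, 18.3 in IR 56-days and 21.95 in CON 56-days, at 1.72 (1.38 to 2.16). End joining members were thus on both sides of 1.

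Among the members higher in IR at 24 hours, Polk had 68.8 CPM in IR 24-hours, 13.3 in CON 24-hours, 26.6 in IR 56-days and 14.5 in CON 56-days, at 5.18 (4.11 to 6.62) and, at 56 days, 1.84 (1.42 to 2.38). Ercc5 had 52.9 CPM in IR 24-hours, 18.4 in CON 24-hours, 30.8 in IR 56-days and 21.6 in CON 56-days, at 2.87 (2.34 to 3.56) and 1.43 (1.14 to 1.79). These 2 were above their controls at both times in this wider set of barcodes as well. Rev3l had 64.9 CPM in IR 24-hours, 28.7 in CON 24-hours, 26.2 in IR 56-days and 44.3 in CON 56-days, and Prkdc 20.7 CPM in IR 24-hours, 10.1 in CON 24-hours, 12.8 in IR 56-days and 21.02 in CON 56-days, at 2.26 (1.91 to 2.69) and 2.05 (1.53 to 2.77) at 24 hours and 0.592 (0.478 to 0.729) and 0.607 (0.444 to 0.821) at 56 days. Trp53bp1 had 23.5 CPM in IR 24-hours, 10.1 in CON 24-hours, 14.5 in IR 56-days and 18.1 in CON 56-days, and Rnf168 38.7 CPM in IR 24-hours, 18.1 in CON 24-hours, 24.7 in IR 56-days and 33.4 in CON 56-days, at 2.32 (1.74 to 3.13) and 2.14 (1.72 to 2.67) at 24 hours. Msh6 had 16 CPM in IR 24-hours, 8.63 in CON 24-hours, 10.6 in IR 56-days and 11.9 in CON 56-days, at 1.85 (1.35 to 2.59). All 7 were at least 1.5-fold higher in IR at 24 hours, and Polk alone of them was past the threshold on the higher side at 56 days. With CON 56-days as the control of IR 24-hours, Polk and Ercc5 stayed past the threshold, at 2.24 and 1.29 on the log2 scale, and the other 5 were within it, at -0.02 for Prkdc, 0.21 for Rnf168, 0.37 for Trp53bp1, 0.42 for Msh6 and 0.55 for Rev3l.

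The remaining members were mostly nearer to 1. Atm had 23.5 CPM in IR 24-hours, 14.4 in CON 24-hours, 12.6 in IR 56-days and 16.1 in CON 56-days, and Atr 23.1 CPM in IR 24-hours, 14.6 in CON 24-hours, 16.95 in IR 56-days and 23.1 in CON 56-days, at 1.63 (1.27 to 2.11) and 1.58 (1.23 to 2.05) at 24 hours. Nbn had 24.2 CPM in IR 24-hours, 15.9 in CON 24-hours, 18.3 in IR 56-days and 23.6 in CON 56-days, at 1.52 (1.19 to 1.95). All 3 were past the threshold on the higher side at 24 hours. At 56 days their levels in IR lay below those in CON but within the threshold. Chek2 had 56.9 CPM in IR 24-hours, 37 in CON 24-hours, 41.4 in IR 56-days and 39.1 in CON 56-days, at 1.54 (1.31 to 1.81), and Ercc1 62.1 CPM in IR 24-hours, 33.5 in CON 24-hours, 64.3 in IR 56-days and 44.8 in CON 56-days, at 1.85 (1.58 to 2.19). Chek2 and Ercc1 were led by endothelial barcodes in all 4 libraries, and these barcodes made up more of IR 24-hours than of CON 24-hours. With the class mix made equal Chek2 changed direction, to -0.21 on the log2 scale, and Ercc1 was within the threshold at 0.26. The cause of these changes was not tested. Mre11a had 14.3 CPM in IR 24-hours, 10.6 in CON 24-hours, 11.7 in IR 56-days and 15.4 in CON 56-days, and Rad50 46.8 CPM in IR 24-hours, 43.6 in CON 24-hours, 36.1 in IR 56-days and 41.8 in CON 56-days. Mdc1 had 17.7 CPM in IR 24-hours, 13.6 in CON 24-hours, 14.5 in IR 56-days and 19.97 in CON 56-days, Rnf8 33.9 CPM in IR 24-hours, 25.9 in CON 24-hours, 31.7 in IR 56-days and 36.4 in CON 56-days, and Rad52 11.5 CPM in IR 24-hours, 8.30 in CON 24-hours, 7.92 in IR 56-days and 6.19 in CON 56-days. Mdc1 and Rnf8 were highest in CON 56-days and Rad52 in IR 24-hours. Polh had 9.43 CPM in IR 24-hours, 7.97 in CON 24-hours, 14.8 in IR 56-days and 10.98 in CON 56-days, Ddb2 6.36 CPM in IR 24-hours, 7.14 in CON 24-hours, 6.82 in IR 56-days and 3.97 in CON 56-days, and Xpc 20.3 CPM in IR 24-hours, 25.4 in CON 24-hours, 22.01 in IR 56-days and 32.1 in CON 56-days. The last 8 were within the threshold at 24 hours, while Atm, Atr, Nbn, Chek2 and Ercc1 were past it. With CON 56-days as the control these 5 were within it, at log2 ratios from -0.00 to 0.54. At 56 days Ddb2 was higher in IR at 1.72 (1.02 to 2.88).

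Reads of overlapping genes on the other strand, such as those beside Ercc1, Msh6, Trp53bp1 and Mre11a, could enter these counts where strand was not used, since the strand setting is not given in the sources used here.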

How the data were processed

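The authors deposited raw UMI counts per gene and cell barcode for 4 libraries, as filtered 10x matrices, and per the submitters' processing notes Cell Ranger 5.0.0 and the mm10 build were used. Strand and intron settings are not given in the sources used here. No count was changed. Of 7086 deposited barcodes, 542 were removed by the limits on genes, UMIs and mitochondrial share, leaving 6544. Doublets were not called, and an alternative left out the deepest 5% of barcodes.

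A barcode entered the class with most distinct markers, if it had at least 3 and at least 2 more than the next class. Barcodes with at least 20% myofibre marker UMIs formed the myofibre gate. The remaining ones stayed ungated. This scoring rule was set after the counts were seen. UMIs were summed per library and class. Ratios of CPM carry exact conditional binomial 95% intervals and levels carry exact Poisson ones, both for counting error only. Medians of log2 ratios used a prior count of 0.5. With 1 library per group no test was made. Classes needed 25 barcodes in both libraries to be compared, and 4 measured members for their counts of members to be given. Rev3l ratios are also given for classes with fewer measured members. The deposited counts give medians of 3057 to 3627 UMIs per barcode, so members with few UMIs have wide intervals. A gene can reach the minimum of 20 UMIs through 1 of its 2 libraries, and its ratio is then a description of counts only.

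All 33 members are accounted for, with levels in every library. In a class each member past 1.5-fold with an interval that leaves out 1 is named. Other pathway genes are named by the same rule in the endothelial gate for irradiated over control, and counted over all kept barcodes. The members and lists were chosen with earlier results of these data known. The ratio code was tested on simulated data. Python 3.11.15, numpy 2.4.6, scipy 1.17.1, pandas 2.3.3 and matplotlib 3.10.9 were used. Alternatives changed the mitochondrial limit, the scaling, the weight and depth of barcodes, the count minimum, the gates, the class mix and the control at 24 hours.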

Additional observations from a re-analysis of the deposited data

Results flagged for a closer look

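Prkdc, Rev3l and Atm were set aside because irradiated over control lay on opposite sides of 1 at the 2 times, each past 1.5-fold with an interval that left out 1. With 1 library per group the difference between the times was not tested. In the endothelial gate Prkdc had a ratio of 2.13 at 24 hours and 0.469 at 56 days, Rev3l 2.30 at 24 hours and 0.574 at 56 days, and Atm 1.73 at 24 hours and 0.609 at 56 days. Under the stricter gate Atm at 56 days was 0.694 (0.401 to 1.18), within the threshold and with an interval that held 1. Over all kept barcodes Prkdc had 2.05 at 24 hours and 0.607 at 56 days, and Rev3l 2.26 at 24 hours and 0.592 at 56 days. The control libraries moved with these values. CON 56-days over CON 24-hours in the endothelial gate was 3.10 for Prkdc, 1.86 for Rev3l and 1.56 for Atm, and its part in the change of direction was not tested.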

How the results depend on the processing

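Of 279 alternative values for the counts of members past 1.5-fold and their medians, 242 stayed close to the value reported and 37 moved. Of 1654 for single members, 1534 stayed close, 106 moved and 14 changed direction. For each value below the cause was not tested. Over all kept barcodes at 24 hours, the median-of-ratios scaling gave 6 higher, 7 lower and a median log2 ratio of 0.09. A total without abundant genes gave 9 higher, as did an equal class mix (9). CON 56-days as the control, added after the data were seen, gave 5 higher, 7 lower and a median of 0.04. In the endothelial gate at 24 hours, thinning to 1000 UMIs gave 0 lower, a minimum of 1 UMI gave 2 lower, and CON 56-days as the control gave 5 higher, 0 lower and a median of 0.10. Over all kept barcodes at 56 days, the median was -0.44 with a total without abundant genes. There 5 were higher with barcodes weighted equally, 5 higher and 3 lower without the deepest 5% of barcodes, 5 higher and 3 lower without cycling barcodes, and 1 higher with an equal class mix. In the endothelial gate at 56 days, equal weights gave 5 higher, a minimum of 1 UMI gave 6 higher and the stricter gate gave 4 lower of 25 measured. Medians at 56 days moved to 0.56 in pericytes or smooth muscle without each member's top barcode. In fibro-adipogenic progenitors they were -1.48 with a minimum of 50 UMIs and -1.22 under the stricter gate. In Schwann barcodes they were -0.12 with a mitochondrial limit of 10%, -0.03 with equal weights, -0.11 without cycling barcodes and -0.05 with a minimum of 1 UMI. For CON 56-days over CON 24-hours in the endothelial gate, the members lower numbered 1 with the mitochondrial limit of 10%, 1 without the deepest 5%, 1 without each top barcode, 0 with a minimum of 50 UMIs and 0 under the stricter gate. Thinning gave 5 higher and 1 lower there. The log2 ratios that changed direction over all kept barcodes at 24 hours were Brca1 (1.02, from only 9 UMIs in IR and 2 in CON) and Lig1 (0.59) without cycling barcodes, Chek2 (-0.21) and Parp1 (0.10) with an equal class mix, and Atr (-0.00), Prkdc (-0.02) and Parp1 (0.03) with CON 56-days as the control. That control also turned Prkdc (-0.54) and Mre11a (-0.17) in the endothelial gate. At 56 days over all kept barcodes they were Brca1 with equal weights (0.29), thinned (1.16) and without cycling barcodes (1.55, from 9 UMIs in IR and 5 in CON), and Fancd2 thinned (1.59). Xrcc6 in the endothelial gate was 0.05 when thinned. Thinning left out 374 barcodes in IR 24-hours, 195 in CON 24-hours, 127 in IR 56-days and 180 in CON 56-days. No paired analysis was possible because each group is 1 library, and for the same reason no replicate could be left out.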
